A study of Mus musculus with 9 samples.

Results

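The 10 genes described here encode the D cyclins (Ccnd1, Ccnd2 and Ccnd3), their kinase partners (Cdk4 and Cdk6) and the inhibitors of these kinases (Cdkn1a, Cdkn1b, Cdkn1c, Cdkn2a and Cdkn2b). They were taken by symbol from the 18193 genes that the arrays measured, and 26 of the 45037 probe sets that are not controls named 1 of them and no other gene. RNA came from the auditory nerve of adult CBA/CaJ mice of both sexes, aged 8 to 12 weeks, and the tissue had no treatment. The first of the 3 groups was nerve tissue that was collected directly. The second was cultured cells, grown to confluency for 5 to 7 days from dissociated nerve in medium with 10% serum and B27 supplement. The third was neurospheres, which are free-growing cell clusters, made from such cultures by 12 more days in serum-free medium with EGF at 20 ng/ml, FGF at 10 ng/ml and heparin at 2 µg/ml. Each group had 3 arrays. Whether these stand for separate animals or cultures is not stated, so p-values gauge the spread among the arrays at hand, part or all of which may be technical.

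D cyclins are made in response to growth factors and bind CDK4 or CDK6, and the active kinase phosphorylates the retinoblastoma protein, which releases E2F factors and lets a cell leave the G1 phase. INK4 inhibitors (p15 from Cdkn2b, p16 from Cdkn2a) bind CDK4 and CDK6 and keep the cyclin away. Cip/Kip inhibitors (p21 from Cdkn1a, p27 from Cdkn1b, p57 from Cdkn1c) bind cyclin-kinase complexes, chiefly those of CDK2, and are linked with the arrest of mature neurons and glia.

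All values are RMA signals on the log2 scale, on which a difference of 1 is a doubling, and because probes differ, only changes can be compared between genes, not levels. The values carry no detection calls, so signals under 6.48, the bound of the dimmest 40% of genes by mean, are not shown to be above background, and fold changes taken from them depend on that level. Replicate arrays correlated across genes at r = 0.993 to 0.997, and their median SD was 0.10 to 0.12 (log2). The tissue carried its cell types: all 8 neuron markers and all 6 measured markers of myelinating and other glia were lower in both kinds of culture. The summed linear signal of the neuron markers was 67716 to 74701 on tissue arrays, 627 to 674 on cultured cell arrays and 710 to 926 on neurosphere arrays. Of the 6 fibroblast markers, 3 rose and 1 fell in cultured cells against tissue, and 5 rose and none fell in neurospheres against tissue. For actin, the control probes of the 3′ end read higher than those of the 5′ end by 2.38 to 3.07 (log2) in tissue, 0.33 to 0.40 in cultured cells and 0.54 to 0.83 in neurospheres. The part of these shifts in cell type and RNA quality in the results below was not tested. In such bulk RNA, fewer cells of a type and less RNA per cell cannot be told apart.

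Both cultures carried more Ccnd1, Ccnd2, Cdk4, Cdk6 and Cdkn2b RNA than the nerve and less Cdkn1b, each by its brightest probe set, while the direction of Ccnd3 depended on the probe set. A gene passed where limma gave an adjusted p under 0.05 together with more than a 1.5-fold change. In cultured cells against tissue, 8 of the 10 genes rose and 1 fell (Cdkn1b), where 42.4% of all genes passed, 20.4% upward and 22.0% downward. In neurospheres against tissue, 7 rose and 2 fell (Cdkn1b and Cdkn1c), where 42.7% of all genes passed, 21.7% upward and 21.0% downward. In neurospheres against cultured cells, 4 rose (Ccnd1, Cdk6, Cdkn2a and Cdkn2b) and 2 fell (Ccnd2 and Cdkn1c), where 17.9% of all genes passed, 9.0% upward and 8.91% downward. The median log2 fold change of the 10 genes was 1.79, 1.99 and 0.22 in these comparisons, in this order, against -0.0091, 0.047 and 0.051 over all genes. The arrays of the compared groups did not overlap for 10, 10 and 8 of the 10 genes, where this held for 68.6%, 68.1% and 48.4% of all genes. The 3 comparisons share samples, and each is given by its own values. Centring on hybridisation controls moved all log2 fold changes by 0.21, 0.060 and -0.15 in the same order, and no gene that passed changed direction.

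**Figure D1:**
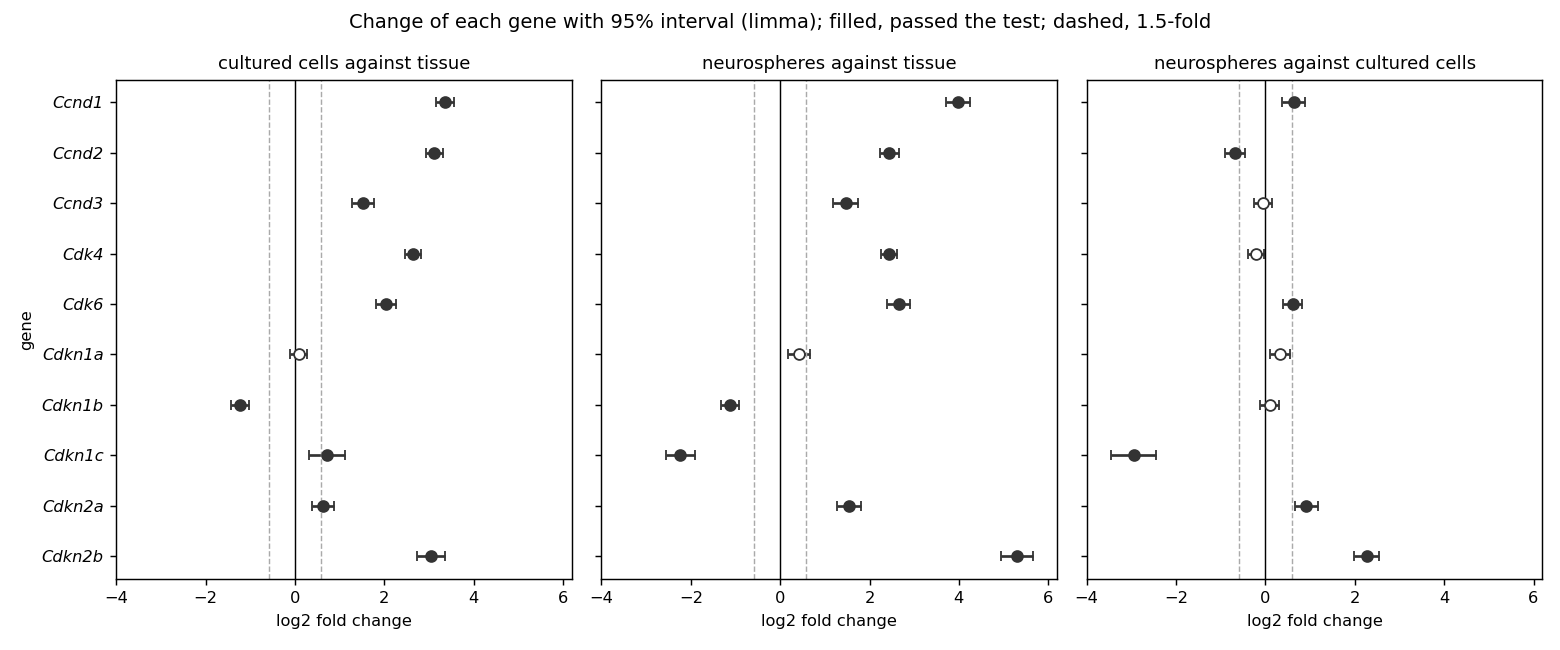
Log2 fold change (x axis) of each of the 10 genes (y axis) in the 3 comparisons, with the 95% interval from limma. Filled points passed the test and dashed lines mark 1.5-fold. Cdkn2b at 5.31 in neurospheres against tissue and Cdkn1c at -2.95 in neurospheres against cultured cells lie farthest from 0 on either side.

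Of the D cyclins, Ccnd1, the classic mitogen-induced member and a target of several growth factor pathways, was highest in neurospheres. Its signal was 8.16, 8.15 and 7.98 on the tissue arrays, 11.47, 11.53 and 11.37 on the cultured cell arrays and 12.10, 12.28 and 11.88 on the neurosphere arrays. The groups did not overlap. Ccnd1 rose 10.3-fold in cultured cells (log2 3.36, SE 0.090, adjusted p = 1.34e-09) and 15.9-fold in neurospheres (3.99, SE 0.12, adjusted p = 1.38e-08) against tissue. From cultured cells to neurospheres it rose 1.55-fold (0.63, SE 0.11, adjusted p = 0.0031), which fell under the fold threshold without neurosphere array 2 (0.53) or cultured cell array 3 (0.58), and with hybridisation controls as the reference (0.48). All 3 probe sets of Ccnd1 rose against tissue, and the dimmest did not pass between the cultures (0.41). The tissue arrays of that dimmest probe set (5.56 to 6.15) lay under 6.48.

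Ccnd2, the D cyclin best known from neural progenitors and from the cerebellum, was highest in the cultured cells. It stood at 9.77, 9.70 and 9.61 in tissue, 12.92, 12.74 and 12.79 in cultured cells and 12.21, 12.21 and 12.00 in neurospheres. No array of a group reached into another group. The rise over tissue was 8.70-fold in cultured cells (log2 3.12, SE 0.088, adjusted p = 1.75e-09) and 5.44-fold in neurospheres (2.44, SE 0.096, adjusted p = 7.24e-08). Neurospheres were 1.60-fold lower than cultured cells (-0.68, SE 0.095, adjusted p = 0.000807). All 7 probe sets of Ccnd2 passed in these directions in the 3 comparisons, with -0.68 to -0.95 between neurospheres and cultured cells, where 17.1% of all probe sets passed in either direction. The tissue arrays of the dimmest Ccnd2 probe set (4.14 to 4.82) lay under 6.48, as did tissue array 1 of the next dimmest (6.17).

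Ccnd3, the D cyclin that stays expressed in many differentiated tissues, gave different answers by probe set. The brightest probe set was at 8.19, 8.38 and 8.59 in tissue, 9.94, 9.89 and 9.91 in cultured cells and 9.98, 9.82 and 9.75 in neurospheres. Both cultures lay above tissue and overlapped each other. It rose by 1.53 (SE 0.11, adjusted p = 9.82e-07) in cultured cells and by 1.46 (SE 0.12, adjusted p = 7.44e-06) in neurospheres, and differed between them by -0.064 (95% interval -0.26 to 0.14, adjusted p = 0.622). The second probe set ran the other way, at 7.53, 7.44 and 7.35 in tissue, 5.66, 5.77 and 6.19 in cultured cells and 7.62, 7.17 and 6.96 in neurospheres. It fell by 1.56 in cultured cells against tissue (limma over all probe sets, adjusted p = 2.46e-06) and rose by 1.38 in neurospheres against cultured cells (adjusted p = 0.000744). Its cultured cell arrays all lay under 6.48, so both changes rest on a level not shown to be above background. The third probe set did not pass in any comparison, and with the mean of the probe sets the rise over tissue no longer passed (0.033 in cultured cells and 0.51 in neurospheres). The direction of Ccnd3 thus depended on the probe set, and which transcripts these probe sets read was not tested.

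**Figure D2:**
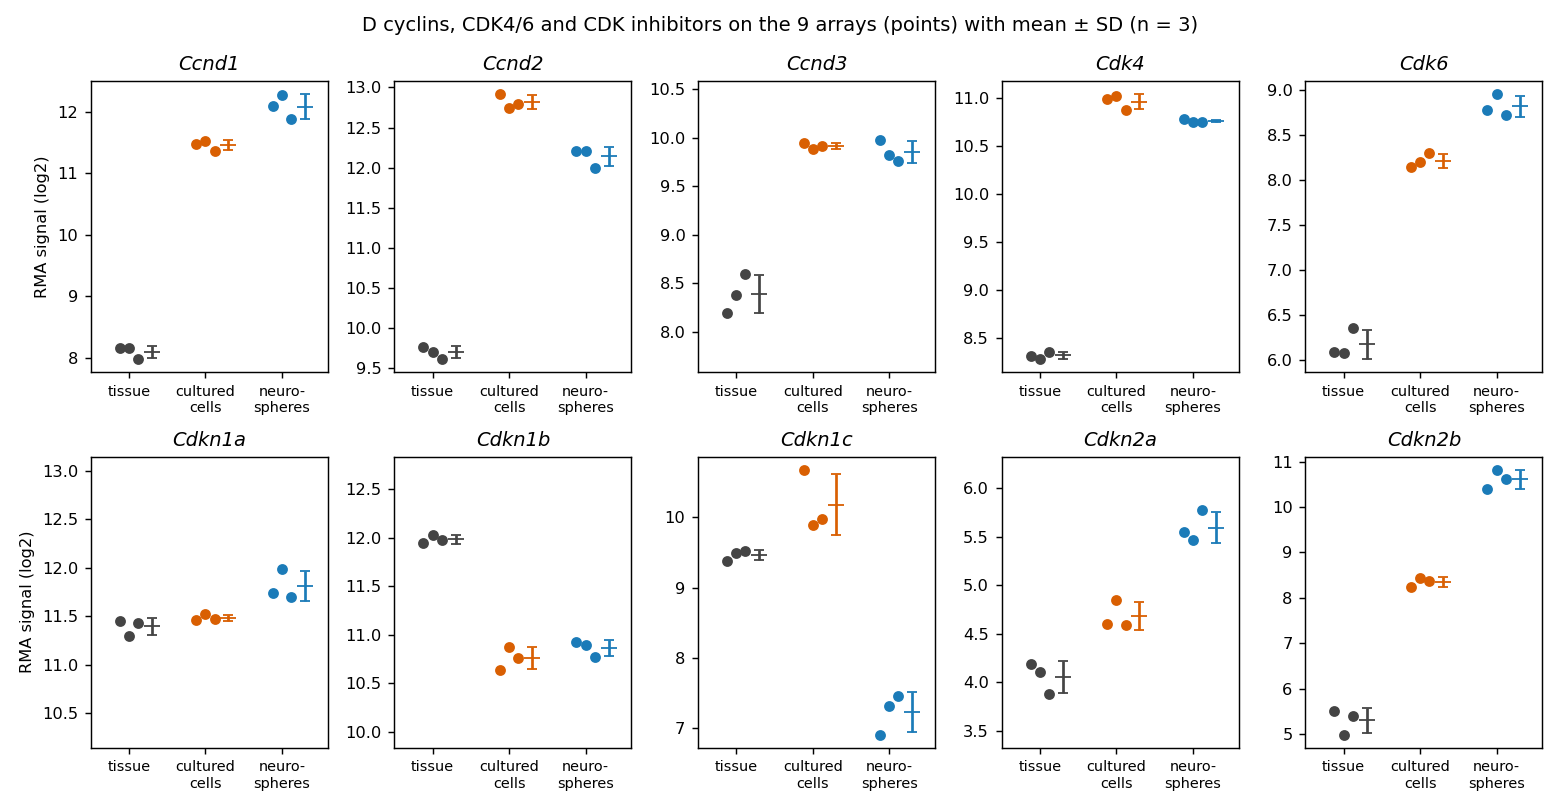
RMA signal (y axis, log2) of the 10 genes on the 3 arrays of each group (points), with the mean ± SD beside them; each panel has its own axis range, at least 3 wide. Ccnd1, Cdk6, Cdkn2a and Cdkn2b climb from tissue through cultured cells to neurospheres, Ccnd2 and Cdkn1c peak in cultured cells, and Cdkn1b is highest in tissue.

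Among the kinases, Cdk4, the partner of all D cyclins in most cycling cells, rose in both cultures. Its signal was 8.32, 8.29 and 8.36 in tissue, 10.99, 11.03 and 10.88 in cultured cells and 10.78, 10.76 and 10.75 in neurospheres. Tissue lay far below, and the cultures were close to each other without overlap. The rise was 6.25-fold in cultured cells (log2 2.64, SE 0.082, adjusted p = 3.24e-09) and 5.43-fold in neurospheres (2.44, SE 0.079, adjusted p = 2.24e-08). Between neurospheres and cultured cells Cdk4 differed by -0.20 (95% interval -0.38 to -0.022, adjusted p = 0.0814) and did not pass. All 3 probe sets rose over tissue, by 2.42 to 3.33 in cultured cells and by 2.30 to 3.19 in neurospheres.

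The Cdk4 promoter is shown for its repeated E-boxes, the letters bound by MYC and related factors. The stretch runs from 250 bases before to 50 bases after the start and is taken, with its coordinates, from RefSeq (GRCm38.p6, chr10:127063285-127063584, plus strand). Capitals mark the E-box (CACGTG) and the GC box (GGGCGG, or CCGCCC on the other strand), of which the last pair overlap.

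Cdk4: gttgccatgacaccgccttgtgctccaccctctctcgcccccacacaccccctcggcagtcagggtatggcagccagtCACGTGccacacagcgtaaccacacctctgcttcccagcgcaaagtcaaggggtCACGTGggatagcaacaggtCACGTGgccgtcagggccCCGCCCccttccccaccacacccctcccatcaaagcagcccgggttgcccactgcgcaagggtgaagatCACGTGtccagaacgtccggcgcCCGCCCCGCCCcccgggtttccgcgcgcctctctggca

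The E-box occurs 4 times, first at base -172 and last at base -11 from the start. Of the 32851 promoters in the table, 7.15% held the E-box at all and 8 held 4 or more. The GC box, which 35.7% of promoters held, occurs 3 times. Myc RNA stood at 6.90, 6.83 and 6.77 in tissue, 8.35, 8.75 and 8.83 in cultured cells and 8.43, 8.44 and 9.01 in neurospheres. Myc passed in both comparisons with tissue (1.81, SE 0.13, adjusted p = 9.37e-07, and 1.79, SE 0.15, adjusted p = 1.05e-05) and differed by -0.014 between the cultures (adjusted p = 0.962). The letters are a description of the stretch, and binding was not measured.

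Cdk6, a kinase of more restricted expression that is known from progenitor and blood cells, was highest in neurospheres. It was at 6.08, 6.07 and 6.36 in tissue, 8.14, 8.20 and 8.30 in cultured cells and 8.78, 8.96 and 8.73 in neurospheres, with no overlap. All 3 tissue arrays were under 6.48. Against tissue it rose 4.12-fold in cultured cells (log2 2.04, SE 0.10, adjusted p = 8.20e-08) and 6.28-fold in neurospheres (2.65, SE 0.11, adjusted p = 1.08e-07). The rise of 1.52-fold from cultured cells to neurospheres (0.61, SE 0.093, adjusted p = 0.0013) was just over the fold threshold. It no longer passed without neurosphere array 2 (0.54), without cultured cell array 1 (0.57), with quantile normalization (0.57), with hybridisation controls as the reference (0.46), or in the other probe sets (0.56 and 0.16).

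Of 15 transcription factors measured that act on D cyclin and Cip/Kip genes, 7 rose and 1 fell in cultured cells against tissue, 5 rose and 2 fell in neurospheres against tissue, and 3 rose and 4 fell between the cultures. Against tissue these shares are near the 42.4% and 42.7% of all genes that passed, and nothing is read from them. Between the cultures, 17.9% of all genes passed. Beside Myc, the growth factor-induced Egr1 rose by 3.89 and 3.25 against tissue, and Fosl1, an AP-1 subunit, by 2.67 and 3.51. Foxo1, which activates Cdkn1b and is switched off by growth factor signalling, fell by 1.04 in cultured cells and fell by 1.38 in neurospheres. Between neurospheres and cultured cells, Smad3, which carries TGF-beta signals, rose by 1.27, and Klf6, an activator of Cdkn1a, fell by 1.75.

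Both INK4 inhibitor genes rose in the cultures, and Cdkn2b, whose p15 protein mediates arrest by TGF-beta, rose most of the 10 genes from tissue to neurospheres. Cdkn2b was at 5.52, 4.99 and 5.39 in tissue, 8.23, 8.44 and 8.36 in cultured cells and 10.39, 10.81 and 10.62 in neurospheres. The levels formed 3 separate steps. It rose 8.25-fold in cultured cells (log2 3.04, SE 0.14, adjusted p = 3.70e-08) and 39.6-fold in neurospheres (5.31, SE 0.16, adjusted p = 1.45e-08) against tissue. The tissue values lie under 6.48, so these 2 folds rest on a level not shown to be above background. From cultured cells to neurospheres it rose 4.80-fold (2.26, SE 0.12, adjusted p = 4.97e-06), with all 6 arrays above that bound. The gene has 1 probe set.

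Cdkn2a encodes p16Ink4a and, from another first exon and reading frame, p19Arf, an activator of p53. Its only probe set lay among the dimmest 40% of genes, so its level was near the lower end of the scale. It was at 4.19, 4.11 and 3.88 in tissue, 4.60, 4.85 and 4.60 in cultured cells and 5.55, 5.47 and 5.78 in neurospheres. The steps were small but did not overlap. Cdkn2a rose 2.91-fold in neurospheres against tissue (log2 1.54, SE 0.12, adjusted p = 5.25e-06) and 1.88-fold against cultured cells (0.91, SE 0.11, adjusted p = 0.000425). The 1.54-fold rise in cultured cells against tissue (0.63, SE 0.11, adjusted p = 0.000733) was under the fold threshold without tissue array 3 (0.54), without cultured cell array 2 (0.54), or with arrays centred on the highly expressed genes (0.54). The values do not say which of the transcripts rose.

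The starts of both genes lie on the minus strand of chromosome 4, and the stretches from RefSeq (GRCm38.p6, 250 bases before to 50 after each start) are shown to set the neighbouring promoters side by side. The first is Cdkn2b, chr4:89310983-89311282. The second is the upstream start of Cdkn2a, that of the p19Arf transcript, chr4:89294570-89294869, and the third its downstream start, chr4:89282143-89282442. Capitals mark the cyclic AMP response element (TGACGTCA), an E2F site (TTTCCCGC, one of the forms searched) and the GC box (GGGCGG), each searched on both strands.

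Cdkn2b: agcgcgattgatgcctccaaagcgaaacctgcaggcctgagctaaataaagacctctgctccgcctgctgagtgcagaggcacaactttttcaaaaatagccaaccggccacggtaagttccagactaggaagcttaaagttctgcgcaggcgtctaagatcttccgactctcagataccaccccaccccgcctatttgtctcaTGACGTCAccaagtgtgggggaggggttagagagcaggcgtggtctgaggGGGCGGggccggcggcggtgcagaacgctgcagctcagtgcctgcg
Cdkn2a upstream start: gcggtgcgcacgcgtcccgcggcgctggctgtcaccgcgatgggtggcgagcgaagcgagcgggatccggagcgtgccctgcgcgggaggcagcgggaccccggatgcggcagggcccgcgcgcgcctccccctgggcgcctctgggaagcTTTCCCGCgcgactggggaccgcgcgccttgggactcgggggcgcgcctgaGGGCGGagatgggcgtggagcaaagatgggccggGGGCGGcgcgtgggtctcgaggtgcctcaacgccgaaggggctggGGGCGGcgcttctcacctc
Cdkn2a downstream start: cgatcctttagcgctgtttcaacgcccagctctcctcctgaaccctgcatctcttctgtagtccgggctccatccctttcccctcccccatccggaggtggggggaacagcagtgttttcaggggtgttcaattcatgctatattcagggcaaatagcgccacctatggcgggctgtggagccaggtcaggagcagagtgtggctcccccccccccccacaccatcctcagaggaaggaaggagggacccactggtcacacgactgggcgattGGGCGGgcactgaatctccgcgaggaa

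The start of Cdkn2b lies 16413 bases from the upstream start of Cdkn2a, which lies 12427 bases from the downstream one. Cdkn2b held a cyclic AMP response element at base -46, found in 1.79% of all promoters, and 1 GC box. The upstream Cdkn2a stretch held an E2F site at base -99, found (in any of the forms searched) in 2.26% of promoters, and 3 GC boxes. The downstream stretch held 1 GC box. The upstream stretch was 77.0% G and C with 45 CpG pairs, against medians of 52.7% and 7 over all promoters. No measurement of these arrays reads the promoters themselves.

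Of 20 regulators of this locus measured, 7 rose and 3 fell in cultured cells against tissue, 6 rose and 1 fell in neurospheres against tissue, and 4 rose and 3 fell between the cultures. Of all genes, 42.4%, 42.7% and 17.9% passed in these comparisons, and the counts of the first 2 are near these shares or below them. Cbx7, a Polycomb protein that represses the locus, fell by 2.12 in cultured cells and fell by 2.55 in neurospheres against tissue. Ezh2, the Polycomb methyltransferase, rose by 2.55 and 1.47 against tissue and fell by 1.09 (adjusted p = 0.000252) between neurospheres and cultured cells. Bmi1, another Polycomb repressor of the locus, did not pass in the 3 comparisons (-0.19, 0.066 and 0.25). Hmga2, a chromatin protein that lowers Cdkn2a in young neural stem cells, was at 6.09, 6.21 and 6.30 in tissue, 10.36, 10.70 and 10.65 in cultured cells and 12.27, 12.28 and 11.97 in neurospheres. It rose by 4.37, 5.97 and 1.60 in the 3 comparisons, so that Hmga2 RNA and Cdkn2a RNA were both highest in neurospheres. Tbx3, a repressor of the locus, was at 5.78, 5.90 and 6.08 in tissue, 5.10, 5.39 and 5.39 in cultured cells and 8.48, 7.68 and 7.94 in neurospheres. It fell by 0.62 in cultured cells against tissue and rose by 2.74 (adjusted p = 2.01e-05) in neurospheres against cultured cells. Its tissue and cultured cell arrays lay under 6.48, so both changes rest on a level not shown to be above background. Of the other INK4 genes, Cdkn2c (p18) rose by 2.59 and 2.17 against tissue, and Cdkn2d (p19Ink4d) did not pass in any comparison (0.21, 0.25 and 0.045).

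The Cip/Kip genes went 3 ways. Cdkn1a, whose p21 protein is the best known product of p53 activity, was bright in every group, at 11.45, 11.30 and 11.43 in tissue, 11.46, 11.52 and 11.47 in cultured cells and 11.74, 11.99 and 11.70 in neurospheres. Cultured cells and tissue lay next to each other without overlap, and neurospheres lay somewhat above. The differences were 0.086 (95% interval -0.10 to 0.27, adjusted p = 0.394) for cultured cells against tissue, 0.42 (adjusted p = 0.00736) for neurospheres against tissue and 0.33 (adjusted p = 0.0295) between the cultures. The last 2 were under the fold threshold, so Cdkn1a did not pass in any comparison. Its second probe set, at 9.85, 9.68 and 10.00 in tissue, was at 10.99, 10.99 and 10.89 in cultured cells and at 11.11, 11.34 and 10.97 in neurospheres. That probe set passed against tissue in cultured cells (1.11, adjusted p = 4.49e-06) and in neurospheres (1.29, adjusted p = 2.47e-05), where 40.5% and 39.7% of all probe sets passed.

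Other p53 target genes mostly rose against tissue. Of 18 measured, 11 rose and 1 fell in cultured cells, 13 rose and 2 fell in neurospheres, and 2 rose and 1 fell between the cultures. The shares of all genes that passed were 42.4%, 42.7% and 17.9% in this order, and the last count is near its share. Eda2r, a death receptor of the TNF family, rose by 4.87 and 5.05 against tissue, and Pmaip1 (Noxa), a BH3-only cell death protein, by 4.37 and 4.49. The tissue arrays of both genes lay under 6.48 (means 4.45 and 4.29), so these changes rest on a level not shown to be above background. Gadd45a, a stress gene, rose by 2.94 (adjusted p = 4.46e-05) in neurospheres against cultured cells. Sesn1, a stress gene of the sestrin family, fell by 1.35 in cultured cells and fell by 1.55 in neurospheres against tissue. Perp also fell in neurospheres, with log2 fold changes of -1.57 against tissue and -1.37 against cultured cells. Perp did not pass in cultured cells against tissue (-0.20).

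Cdkn1b, whose p27 protein holds cells in quiescence, was the only gene of the 10 that was lower in both cultures than in tissue. It was at 11.94, 12.03 and 11.98 in tissue, 10.64, 10.87 and 10.76 in cultured cells and 10.92, 10.89 and 10.77 in neurospheres. Every tissue array lay above all culture arrays, and the cultures overlapped. Cdkn1b fell by 1.22 (SE 0.089, adjusted p = 1.27e-06) in cultured cells and by 1.12 (SE 0.086, adjusted p = 4.74e-06) in neurospheres, which is 2.33-fold and 2.18-fold lower. Between the cultures it differed by 0.10 (95% interval -0.11 to 0.31, adjusted p = 0.452), and this difference was -0.045 with centring on hybridisation controls. Its second, dim probe set (5.39 to 5.93 on all arrays) did not pass in any comparison.

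Genes of the protein turnover of cyclins and p27 gave mixed counts. Of 14 measured, 7 rose and 2 fell in cultured cells against tissue, and 6 rose and 2 fell in neurospheres against tissue. Between the cultures, none rose and 2 fell. The shares of all genes that passed were 42.4%, 42.7% and 17.9% in this order. Skp2, the F-box protein that marks p27 for destruction, was at 6.54, 6.74 and 6.76 in tissue, 9.42, 9.62 and 9.52 in cultured cells and 8.09, 7.83 and 8.25 in neurospheres. It rose by 2.84 and 1.37 against tissue and fell by 1.46 (adjusted p = 4.25e-05) between neurospheres and cultured cells. Rnf123 (KPC1), a ligase for p27 in G1, fell by 2.06 in cultured cells and fell by 1.92 in neurospheres against tissue. Fbxw7, the F-box protein for cyclin E, had log2 fold changes of -1.25 and -1.34 there.

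Cdkn1c, the imprinted gene of p57, was lowest in neurospheres. It was at 9.38, 9.49 and 9.52 in tissue, 10.67, 9.89 and 9.98 in cultured cells and 6.91, 7.32 and 7.47 in neurospheres. The groups did not overlap, and cultured cell array 1 stood above the other 2 of its group. Neurospheres were 7.73-fold lower than cultured cells (log2 -2.95, SE 0.22, adjusted p = 2.87e-05), at rank 76 among the falls of all genes, and 4.70-fold lower than tissue (-2.23, SE 0.14, adjusted p = 1.39e-06). The rise of 1.64-fold in cultured cells against tissue (0.72, SE 0.18, adjusted p = 0.00645) was under the fold threshold without cultured cell array 1 (0.47). The summed linear signal of 5 smooth muscle and pericyte markers had the same order of groups, at 12266 to 14896 in cultured cells, 5204 to 7258 in tissue and 1640 to 3105 in neurospheres. Of these markers, 3 rose and 2 fell in cultured cells against tissue, and 1 rose and 3 fell between neurospheres and cultured cells. Rgs5 and Myh11 did not have the order of the sum. Their means were 11.62 and 6.66 in tissue, 9.62 and 4.44 in cultured cells and 10.52 and 4.51 in neurospheres. The part of the 5 markers in the values of Cdkn1c was not tested.

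**Figure D3:**
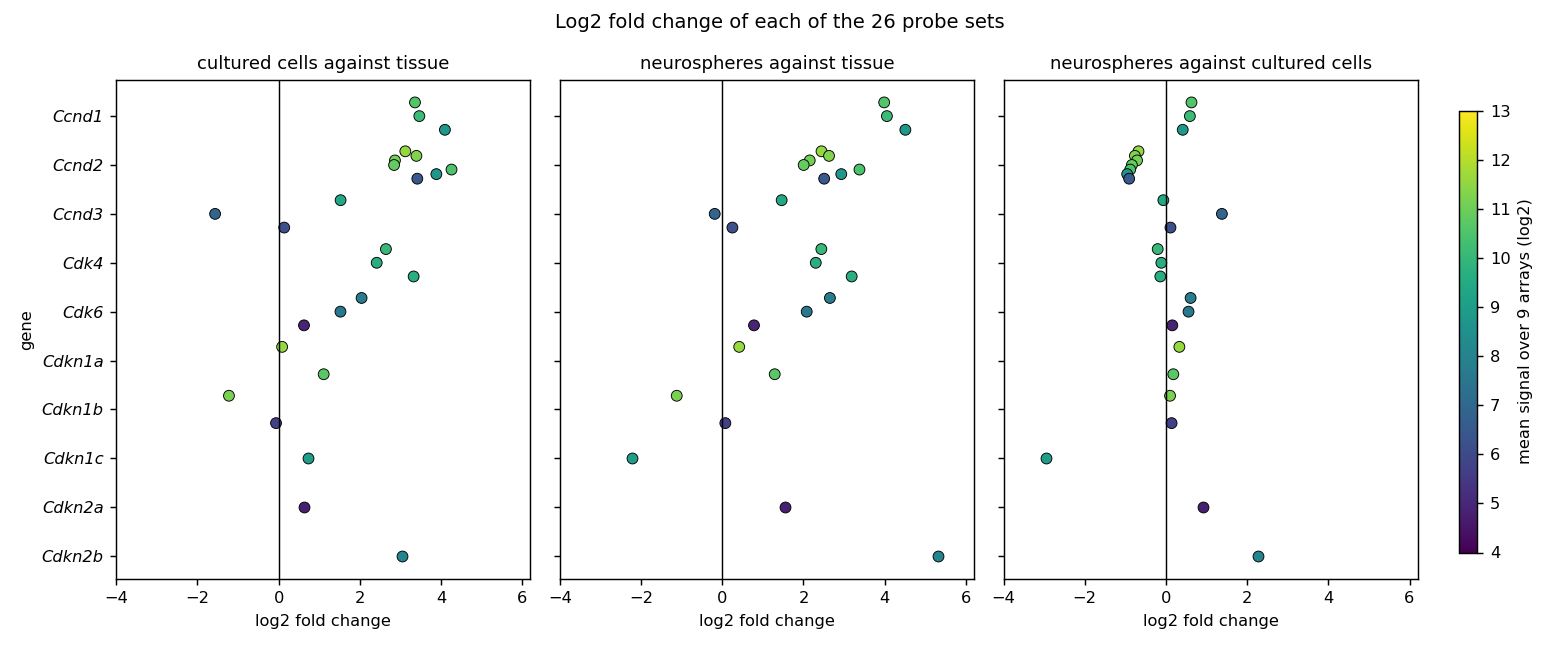
Log2 fold change (x axis) of each of the 26 probe sets, grouped by gene (y axis), in the 3 comparisons; the colour gives the mean signal over the 9 arrays. The 7 probe sets of Ccnd2 lie on the same side in each panel, while those of Ccnd3 lie on both sides of 0 in every panel and those of Cdkn1a lie at 0.086 and 1.11 in the first.

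The change of related genes was also compared through their log2 difference within each array. This leaves out a shift common to all genes of an array, but not shifts that depend on signal level. The size of the difference itself has no meaning, since probes differ. There were 18 such tests, and with 3 arrays against 3 the exact permutation test, 2-sided, cannot go below p = 0.1 (0.106 adjusted over the 18). The log2 difference of Ccnd1 minus Ccnd2 was -1.61, -1.55 and -1.63 in tissue, -1.44, -1.21 and -1.43 in cultured cells and -0.11, 0.072 and -0.12 in neurospheres. It rose by 1.31 from cultured cells to neurospheres and by 0.24 from tissue to cultured cells (exact p = 0.1 for each), with no overlap of arrays. The difference was higher on every neurosphere array than on any array of tissue or cultured cells.

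The difference of Cdk6 minus Cdk4 was -2.24, -2.22 and -2.00 in tissue, -2.85, -2.82 and -2.59 in cultured cells and -2.00, -1.80 and -2.03 in neurospheres. It changed by -0.60 from tissue to cultured cells and by 0.81 from cultured cells to neurospheres (exact p = 0.1 for each). Neurospheres and tissue overlapped (0.21, exact p = 0.2), and with the mean of the probe sets this last change was -0.81. Cdkn2b minus Cdkn2a rose by 2.42 in cultured cells and 3.77 in neurospheres over tissue (exact p = 0.1 for each). Cdkn2a on all arrays, and Cdkn2b and Cdk6 on the tissue arrays, lay under 6.48. The differences with these genes thus rest in part on levels not shown to be above background. Cdkn1a minus Cdkn1b rose by 1.31 and 1.54 against tissue, and Cdkn1a minus Cdkn1c rose by 3.28 from cultured cells to neurospheres (exact p = 0.1 for each).

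**Figure D4:**
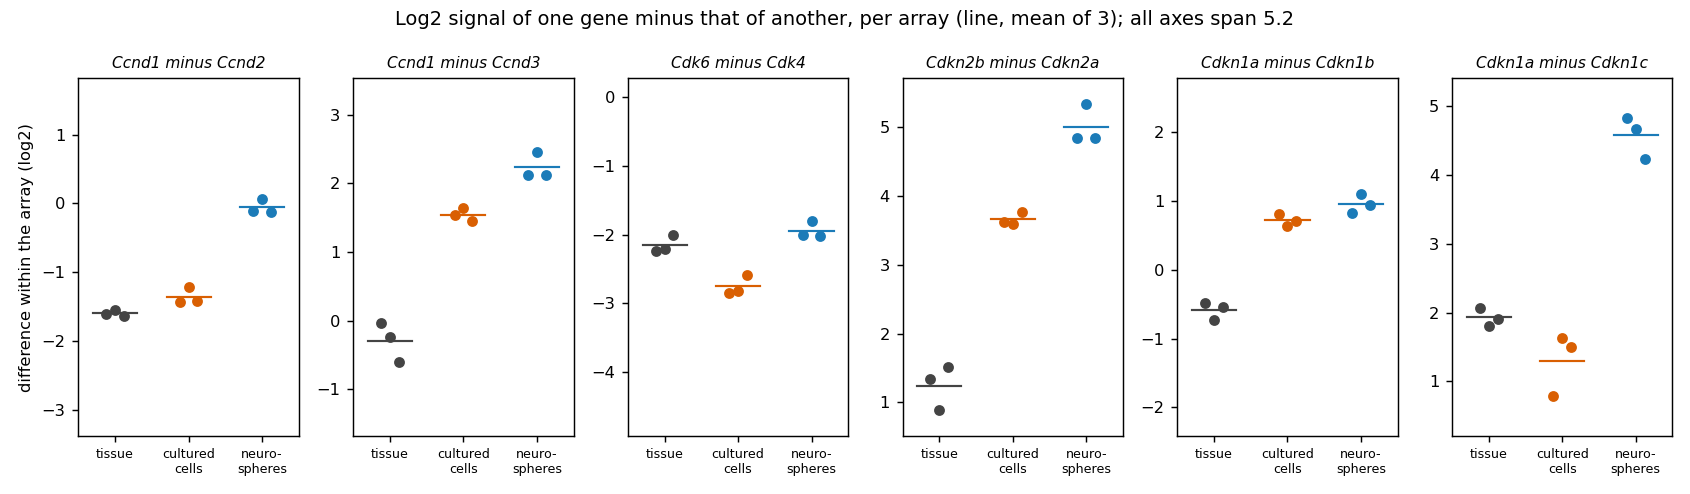
Log2 signal of one gene minus that of another on the same array (y axis, points; lines are means of 3 arrays) in the 3 groups; every axis spans the same width, and only shifts between groups can be read, since the probes of 2 genes differ. Ccnd1 minus Ccnd2 is higher on the 3 neurosphere arrays (-0.12 to 0.072) than on the others (-1.63 to -1.21).

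Downstream of these kinases, the RNA of E2F targets was highest in the cultured cells. Ccnd2 also peaked there, and Cdk4 did not pass between the cultures (-0.20). Ccnd1 and Cdk6 were highest in neurospheres, but their rises over cultured cells (0.63 and 0.61) fell under the fold threshold with hybridisation controls as the reference. Of 19 S-phase targets of E2F measured, all 19 rose in cultured cells against tissue and 18 in neurospheres against tissue, and 17 fell between neurospheres and cultured cells. Their median log2 fold changes were 2.90, 1.40 and -1.19, against -0.0091, 0.047 and 0.051 over all genes. Among all genes, 20.4% and 21.7% rose in the comparisons with tissue, and 8.91% fell between neurospheres and cultured cells. Rrm2, a subunit of ribonucleotide reductase, rose by 5.75 and 4.19 against tissue and fell by 1.56 (adjusted p = 0.000328) between the cultures. Of 15 other INK4, G1/S cyclin and kinase genes, 11 and 10 rose against tissue and 5 fell between neurospheres and cultured cells. Among these 5 were Ccna2 (-1.65), Ccne2 (-1.50) and Cdk1 (-1.45). The 2 lists overlap, as Ccne1 and Ccne2 are in both. Mki67, the Ki-67 proliferation marker, was at 4.80, 4.81 and 5.10 in tissue, 11.78, 11.74 and 11.70 in cultured cells and 10.01, 9.51 and 9.62 in neurospheres, a log2 fold change of -2.03 (adjusted p = 1.24e-05) between the cultures. In the list of 15 proliferation and quiescence genes to which it belongs, 10 rose and 3 fell in each comparison with tissue, and 3 rose and 10 fell between the cultures. The 3 that rose there were Btg1 (1.19), Gas2 (1.32) and Txnip (1.43), which are linked with growth arrest. Of the other arrest-linked genes of the list, Tob1 fell (-0.71), and Gas1 (0.38) and Gas6 (0.23) did not pass. Gas2 was lower in neurospheres than in tissue (-1.99), as were Gas6 and Tob1 (means 9.43 and 10.41 against 10.21 and 11.25). Gas1 and Btg1 were higher in neurospheres than in tissue (means 12.80 and 13.09 against 11.58 and 11.90). The genes of this list that rose over tissue were thus not all proliferation genes.

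Of 13 RB, E2F and DP genes, 7 rose in cultured cells against tissue, and 6 rose and 3 fell in neurospheres against tissue. Between the cultures, 6 of them fell. The shares of all genes that passed were 42.4%, 42.7% and 17.9% in this order. Rbl1 of this list is also among the E2F targets. Rb1, the substrate of the D cyclin kinases, was at 9.69, 9.85 and 9.89 in tissue, 9.80, 9.96 and 10.10 in cultured cells and 9.04, 9.34 and 9.04 in neurospheres. It did not pass in cultured cells against tissue (0.14) and fell by 0.67 (adjusted p = 0.000727) in neurospheres against tissue. Between neurospheres and cultured cells Rb1 fell by 0.81 (-0.81, adjusted p = 0.00098). E2f7, a repressor E2F, rose by 4.61 and 2.46 against tissue and fell by 2.16 between the cultures.

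**Figure D5:**
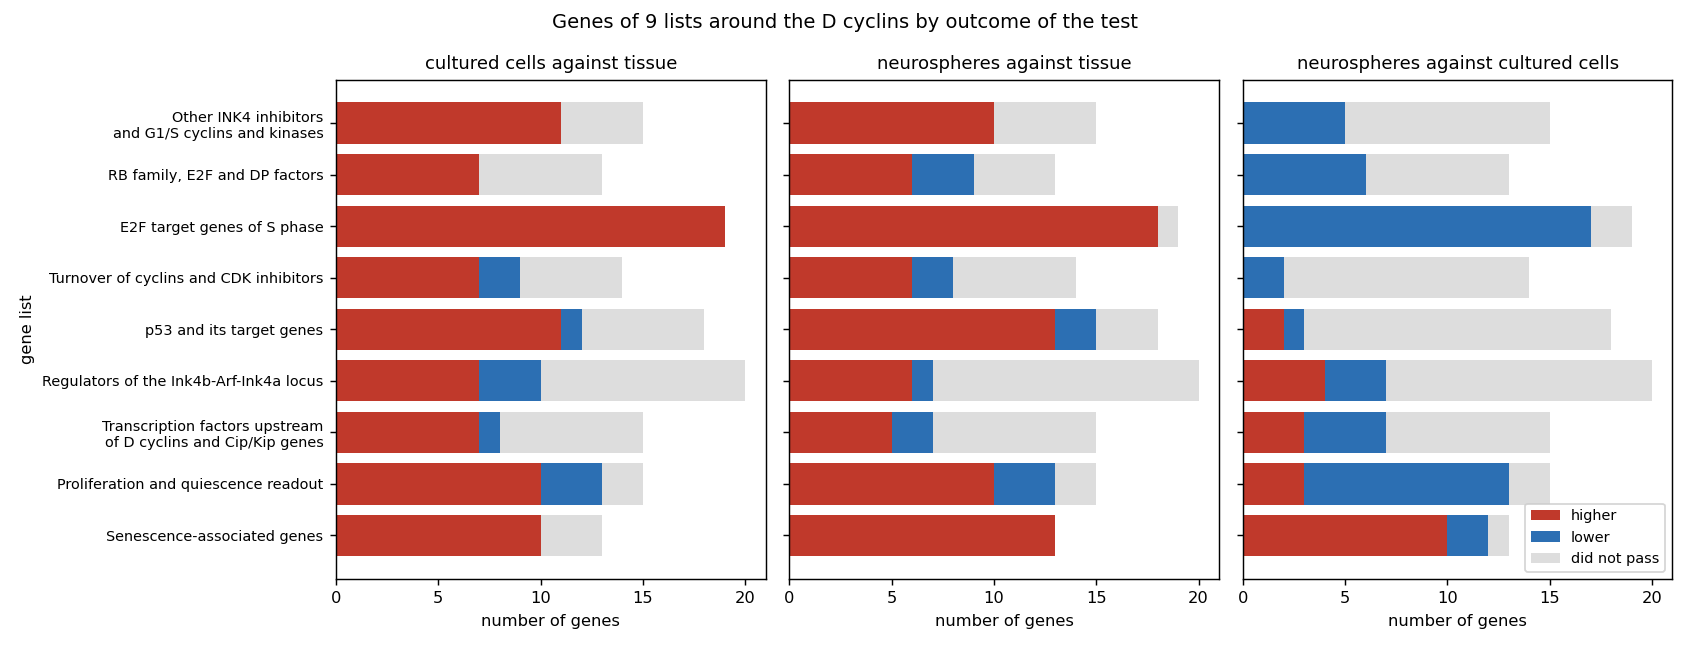
Number of genes (x axis, from 0) of 9 lists (y axis) that were higher, lower or did not pass the test in the 3 comparisons. The E2F targets switch from 19 higher in the first panel to 17 lower in the third, while 10 of 13 senescence-associated genes are higher in the third.

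For each of the 10 genes, the most similar pattern over the 9 arrays was sought among 10668 genes by Pearson's r, as a description with no test; the 9 arrays fall into 3 groups that all genes share. Ccnd1 was closest to Loxl3 (r = 0.999) and Ccdc8 (0.998), Ccnd2 to Mmp23 (0.999) and Col5a1 (0.998), and Ccnd3 to Psma4 (0.998) and Rarb (0.997). Cdk4 was closest to Lgals1 (0.9997) and Ptgr1 (0.999) and Cdk6 to Elk3 (0.998) and Akr1b8 (0.997). Cdkn2b followed Tlr4 (0.999) and Tnfaip2 (0.998), Cdkn2a followed Gpr180 (0.989) and Ptpn2 (0.988), and Cdkn1b followed Fastkd2 and Mfap3l (both 0.997). The patterns of Cdkn1c and of the brightest Cdkn1a probe set were shared by few genes. The changes of that Cdkn1a probe set were small (0.086, 0.42 and 0.33), with an SD of up to 0.16 within groups, which can hold r down. The second Cdkn1a probe set was not searched. Cdkn1c was closest to Bex3 and Tmtc1 (both 0.991), with 70 genes over r = 0.95, and Cdkn1a to Mocos (0.967) and Spry4 (0.962), with 6, while the other 8 genes had 277 to 1589 each.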

How the data were processed

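RNA of 9 samples was measured on Affymetrix mouse expression arrays. The authors labelled 100 ng of RNA by 3′ in vitro transcription, which favours the 3′ end of transcripts. The deposited values are log2 signals that the authors made by RMA in Expression Console, per the labels (MAS5 is also named; versions are not given in the sources used here). They were used as they stood, and carry no detection calls. Array medians were 6.15 to 6.27, and the number of arrays limits the precision.

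Probe sets were named through the platform annotation, with symbols brought up to date by gene ID. Of 45037 probe sets without controls, 34945 named 1 gene, 932 several and 9160 none. A gene was represented by its probe set of highest mean among those that named only it. This choice mattered for 9010 of the 18193 genes. Each comparison was fitted on its own 6 arrays by lmFit and eBayes of limma 3.58.1 (R 4.3.3, 2-sided). To pass, a gene needed a p under 0.05 after Benjamini-Hochberg adjustment over all 18193 genes and more than a 1.5-fold change. Single probe sets were adjusted over all 45037. The study's methods name Student's test, which was run as an alternative. Differences between related genes were tested by exact permutation. The code was tested on simulated data with known changes.

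The 10 genes and the 9 lists around them, from textbook knowledge, were chosen with earlier results of these data known. Of 150 list memberships, 8 were not analysed here, and of 43 marker memberships 3. From the lists, the text names mainly the up to 4 genes of largest change that passed in a comparison and those that passed against the rest of their list. Bmi1, Cdkn2c and Cdkn2d were named for their roles, after their values were seen. Promoter letters were searched in RefSeq stretches (GRCm38.p6), where 7 of the 10 genes have an entry. Ccnd1, Ccnd2 and Cdkn1c have none in the table used. The E2F forms searched were TTTCCCGC, TTTCGCGC, TTTGCCGC and TTTGGCGC. AP-1 (TGANTCA) and TATAAA were searched too.

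Alternatives were other scalings, the mean of a gene's probe sets, each other probe set, leaving out shared probe sets or the dimmest 40% of genes, a trended robust prior, 1 fit to all 9 arrays, other fold thresholds, a replicate block, and a fit without each array.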

Additional observations from a re-analysis of the deposited data

How the results depend on the processing

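Across the alternatives, 573 single values of the 10 genes kept their direction and their side of the threshold, 29 no longer passed, 6 newly passed and 7 changed sign. The sign changes were Ccnd3 with its second probe set in cultured cells against tissue (-1.56) and in neurospheres against tissue (-0.19), Ccnd3 between neurospheres and cultured cells with the mean of its probe sets (0.48), its second (1.38) and the third (0.11), Cdkn1b with its second probe set in neurospheres against tissue (0.075), and Cdkn1b between the cultures with hybridisation controls (-0.045). For Ccnd3 and Cdkn1b the other probe sets are dimmer ones, and the cause was not tested. Cdkn1c in cultured cells against tissue did not pass with the methods' t-test after Benjamini-Hochberg adjustment (0.0738), and Cdkn1b in neurospheres against tissue did not pass with the mean of its probe sets (-0.52). Among the differences between related genes, only Cdk6 minus Cdk4 in neurospheres against tissue changed sign, with the mean of the probe sets (-0.81).

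Without a fold threshold 11641 genes passed in cultured cells against tissue and 6367 between neurospheres and cultured cells, against 7718 and 3259. At a 2-fold threshold 4901, 4961 and 1618 genes passed in the 3 comparisons, and 2 of the 10 genes (Cdkn1c and Cdkn2b) between the cultures instead of 6. Centring on hybridisation controls gave 4863 genes higher and 3262 lower in cultured cells against tissue instead of 3707 and 4011, and 1199 and 2223 between neurospheres and cultured cells instead of 1638 and 1621. Leaving out each array left 8 to 9 of the 10 genes in cultured cells against tissue, 9 in neurospheres against tissue and 4 to 6 between the cultures, with 4 without neurosphere array 2, where Ccnd1 and Cdk6 no longer passed. With the replicate number as a block, 9, 9 and 6 of the 10 genes and 7727, 7777 and 3253 of all genes passed. Whether equal numbers pair the samples cannot be decided from the correlations given next. Each deviation is from the mean of the 3 arrays of its group, so these correlations depend on each other. Deviations of same-numbered arrays correlated at 0.069 to 0.21 in cultured cells against tissue, where differently numbered ones gave -0.17 to 0.085. The same-numbered values were -0.093 to -0.059 in neurospheres against tissue and -0.19 to 0.040 between the cultures. Differently numbered arrays gave -0.018 to 0.066 and -0.086 to 0.21 there. Dimness (under 6.48) limits Cdkn2a and the dimmest probe sets of Cdk6, Cdkn1b and Ccnd3. It also limits the tissue levels of Cdkn2b, Cdk6 and the dimmest probe sets of Ccnd1 and Ccnd2, and the cultured cell level of the second Ccnd3 probe set. The 3 arrays per group limit every value.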

Other observations

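Counts are given here for 13 measured genes of a senescence-associated list, many of them secreted. In cultured cells against tissue 10 rose, none fell and 3 did not pass (Igfbp3, Igfbp5 and Glb1), in neurospheres against tissue all 13 rose, and between neurospheres and cultured cells 10 rose, 2 fell and 1 did not pass. The median log2 fold changes were 1.90, 3.22 and 1.32, against -0.0091, 0.047 and 0.051 over all genes. The shares of all genes that passed were 42.4%, 42.7% and 17.9% in this order. Between the cultures, Mmp3, a matrix metalloproteinase, rose by 6.10 (SE 0.18, adjusted p = 3.54e-07), and the chemokine genes Cxcl5 and Cxcl1 by 3.88 and 3.58. The 2 that fell were Lmnb1 (-0.78, adjusted p = 0.00119), which encodes lamin B1, and Hmgb2 (-1.02, adjusted p = 0.00277), whose loss is the usual sign in senescent cells. Both are among the genes that rose in each comparison with tissue (0.68 and 1.55 in neurospheres), as did Mki67 (4.81, adjusted p = 1.67e-08). Senescence itself was not measured.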
